A study of Mus musculus with 6 samples.

Results

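The genes described here are 8 genes of brown and beige fat, the fat cells that burn fuel to make heat: Ucp1, Cidea, Ppargc1a, Dio2, Prdm16, Elovl3, Cox7a1 and Cox8b. They were taken as every probe set on the array whose annotated gene symbol is exactly one of these names, which gave 17 probe sets for 8 of the 18193 genes with a probe set of their own. Ucp1, Cidea, Elovl3, Cox7a1 and Cox8b have 1 probe set each, Dio2 has 3, Prdm16 has 4 and Ppargc1a has 5. The cells were mouse mesenchymal stem cells, stromal cells that can turn into fat, bone or cartilage cells, bought from a commercial supplier and grown with rosiglitazone at 1 µM, dexamethasone at 1 µM, insulin at 5 µg/ml and the phosphodiesterase inhibitor IBMX (isobutylmethylxanthine) at 100 µM, last added 48 h before exposure. These additions were shared by irradiated and control cultures. Irradiated cultures received 2 h of broadband terahertz pulses of 35 fs centred near 10 THz at 1 kHz and 1 mW/cm2, and RNA was taken directly afterwards. A control culture without irradiation stood beside each irradiated one, both at 26 to 27 °C, and the labels name no culture at another temperature. The 6 arrays are 3 irradiated and 3 control cultures, 1 of each from experiments 1, 2 and 3.

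In brown fat, cold acts through noradrenaline and cyclic AMP (cAMP) on the fat cell. That signal induces Ucp1, whose protein lets protons leak through the inner mitochondrial membrane so that respiration gives heat, together with the coactivator gene Ppargc1a and the deiodinase gene Dio2. Prdm16 encodes a transcription cofactor that sets the brown and beige cell fate, and Cidea, Elovl3, Cox7a1 and Cox8b are markers of the mature thermogenic cell. The medium used here held IBMX, which slows the breakdown of cAMP, and rosiglitazone, an agonist of the fat-cell receptor PPARγ.

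All levels are deposited RMA values on the log2 scale, and each difference is irradiated minus control, or between experiments, on that scale. RMA gives no call of detection, and probes bind their targets unequally, so levels were compared between arrays and not between genes. Over all tested probe sets the mean level had a lower quartile of 3.41, a median of 4.84 and an upper quartile of 7.46. Of the 17 probe sets, 12 had a mean below that median, 4 of them below the lower quartile. All probe sets of Ucp1, Cidea, Ppargc1a, Elovl3 and Cox8b lay below the median. Those at or above it were the 3 of Dio2, that of Cox7a1 and 1 of Prdm16. Brown and beige names the genes here, and these levels give no call on the identity of the cells.

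Of 12 fat cell markers 10 were measured, all at or above the median level, and their mean was 11.0 to 11.08 in irradiated and 11.25 to 11.33 in control cultures. Skeletal and heart muscle, which also express Ppargc1a, Cox7a1 and Cox8b, were checked by 18 markers, of which 5 lay at or above the median, with a mean of 3.86 to 3.99 in irradiated and 3.90 to 3.99 in control cultures. The 12 macrophage and leukocyte markers all lay at or above the median, with a mean of 11.36 to 11.47 in irradiated and 11.21 to 11.41 in control cultures. These means lay above the upper quartile of 7.46, and which cells made the transcripts was not tested. Of 9 measured mesenchymal stromal markers 8 lay at or above the median, with a mean of 8.60 to 8.73 in irradiated and 8.59 to 8.67 in control cultures, and the other, Thy1, stood between 3.51 and 4.07. The control array of experiment 3 stood apart in its hybridization spike-ins, with a mean of 11.63 against 11.06 to 11.25 on the other 5 arrays.

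**Figure D1:**
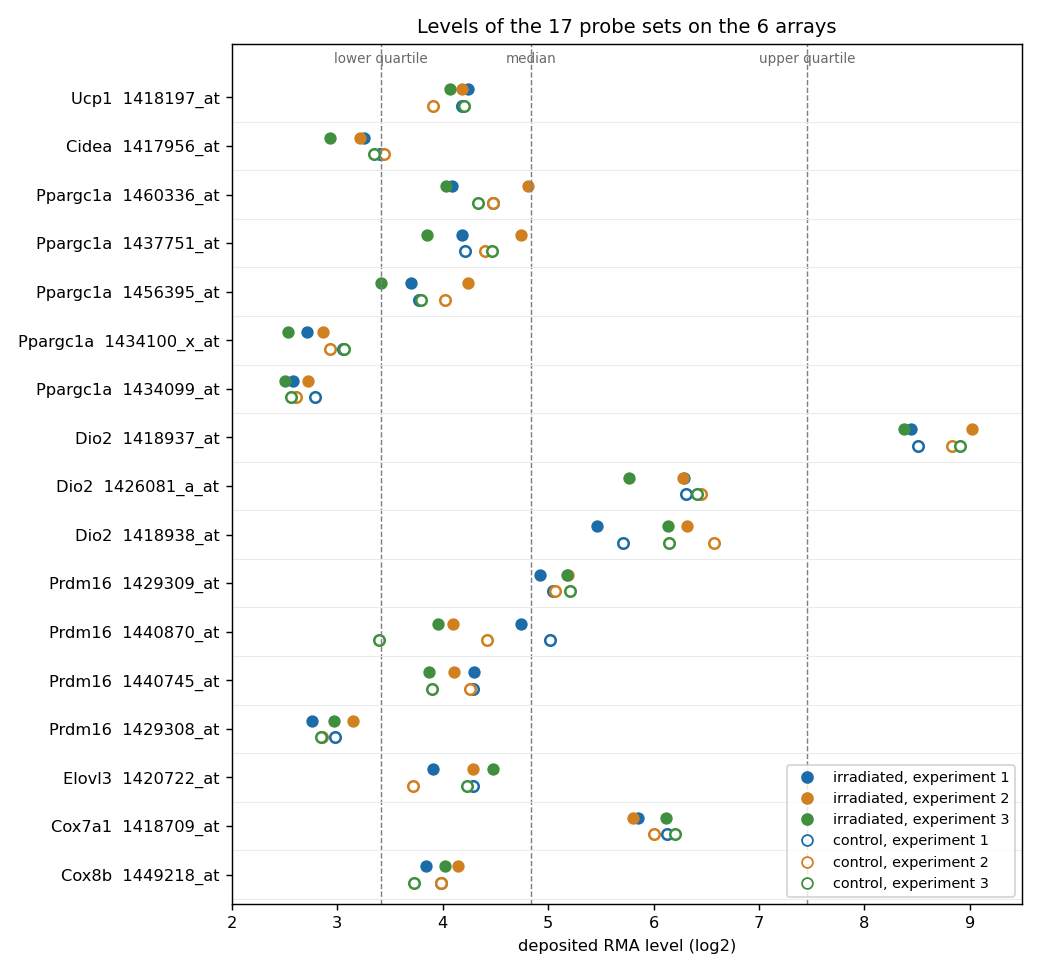
Deposited log2 level (horizontal axis) of each of the 17 probe sets on the 6 arrays, with irradiated cultures as filled points above control cultures as open points, coloured by experiment, and dashed lines at the quartiles of all probe set means (3.41, 4.84 and 7.46). The 3 sets of Dio2, Cox7a1 and Prdm16 1429309_at lie at or above the median line, and points of equal value cover each other.

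The first question was whether 2 h of irradiation moved these genes against the adjacent control. None of the 17 probe sets passed limma's paired test at an adjusted p of 0.05, and neither did any other, which makes the background 0% of 45037 probe sets. The largest differences were lower levels in irradiated cultures, at most -0.31, and the highest was 0.15. The 95% interval of the difference lay inside 2-fold in both directions for all 17 and inside 1.5-fold for 16. The SE ran from 0.08 to 0.18 for the 17 and had a median of 0.088 over all probe sets. Narrow intervals are therefore not particular to these genes, and their share over all probe sets was not counted. Adjusted p by limma lay between 0.929 and 0.993, and 2 of the 17, those of Cidea and 1 of Ppargc1a, had an unadjusted p under 0.05, both lower, where 2.38% of all probe sets were lower with such a p.

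Ucp1, the uncoupling protein, did not pass the test. Its probe set 1418197_at stood at 4.24, 4.18 and 4.07 in the irradiated cultures of experiments 1, 2 and 3, against 4.18, 3.91 and 4.20 in their controls. The arms overlapped, and the irradiated culture was the higher in experiments 1 and 2 and the lower in experiment 3. The difference was 0.07 ± 0.10 (SE, n = 3 pairs; 95% interval -0.17 to 0.31; limma adjusted p = 0.968). Without replicate 2 its sign turned (-0.04).

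Dio2, which encodes the enzyme that makes active thyroid hormone inside the cell, was the gene with a probe set above the upper quartile. Dio2 and Ppargc1a are known targets of cAMP through the cAMP response element (CRE, TGACGTCA), so the stretches before the annotated start of these genes and of Ucp1 are shown. They are the 250 bases upstream from RefSeq's GRCm38.p6, on the gene's strand, with every match to the CRE or to its core TGACG on either strand in capitals.
Dio2, chr12:90739039-90739288, minus strand: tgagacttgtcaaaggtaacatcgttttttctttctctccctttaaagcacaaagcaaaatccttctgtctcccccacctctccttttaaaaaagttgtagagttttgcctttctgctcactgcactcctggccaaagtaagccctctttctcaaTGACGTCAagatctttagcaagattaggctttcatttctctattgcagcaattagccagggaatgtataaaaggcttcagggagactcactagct
Ppargc1a, chr5:51567726-51567975, minus strand: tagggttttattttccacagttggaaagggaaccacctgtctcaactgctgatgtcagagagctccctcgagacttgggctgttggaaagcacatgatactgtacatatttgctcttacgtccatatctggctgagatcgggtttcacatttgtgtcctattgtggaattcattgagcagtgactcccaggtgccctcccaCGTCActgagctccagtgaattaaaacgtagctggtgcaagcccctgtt
Ucp1, chr8:83290098-83290347, plus strand: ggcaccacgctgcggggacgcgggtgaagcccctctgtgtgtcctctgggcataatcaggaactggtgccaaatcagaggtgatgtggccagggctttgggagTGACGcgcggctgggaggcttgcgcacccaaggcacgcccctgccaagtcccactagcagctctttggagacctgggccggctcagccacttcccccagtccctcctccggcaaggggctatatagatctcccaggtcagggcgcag
The Dio2 stretch holds the full CRE, beginning 95 bases before the start, which 1.55% of the 32851 promoters in the table hold in the same 250 bases. Its core matches on both strands there, overlapping within the CRE. Ppargc1a holds the core alone on the other strand, 49 bases before the start, and Ucp1 holds it 147 bases before the start, as 17.8% of all promoters do. Promoters of 6 of the 8 genes were read, those of Cidea and Elovl3 were not used here, and those of Prdm16, Cox7a1 and Cox8b hold neither. A match is a run of letters and not a measured site. Matches were sought in the 250 bases before the annotated start used for each gene. A CRE further away, or before another start of a gene, would not be seen.

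That Dio2 probe set, 1418937_at, stood at 8.44, 9.02 and 8.38 in the irradiated cultures of experiments 1, 2 and 3, against 8.51, 8.83 and 8.91 in their controls. The arms overlapped, and the irradiated culture was lower in experiments 1 and 3 and higher in experiment 2. The difference was -0.14 ± 0.14 (SE, n = 3 pairs; limma adjusted p = 0.948), and it was 0.06 without replicate 3. Dio2 probe set 1426081_a_at stood at 6.29, 6.28 and 5.77 in irradiated cultures, against 6.31, 6.45 and 6.41 in controls. All 3 irradiated values lay below all 3 control values, with pair differences of -0.02, -0.17 and -0.64, so most of the mean came from experiment 3. The mean difference was -0.28 ± 0.13 (95% interval -0.59 to 0.04; limma adjusted p = 0.929), and -0.10 without replicate 3. Dio2 probe set 1418938_at stood at 5.46, 6.32 and 6.14 in irradiated cultures, against 5.71, 6.57 and 6.15 in controls. The arms overlapped because the experiments lay further apart than the pair differences of -0.25, -0.25 and -0.01, and the mean was -0.17 ± 0.09 (limma adjusted p = 0.929). The control array of experiment 3, which enters the pairs of -0.53 and -0.64, is the array with the high spike-ins. The Actb controls of experiment 3 had a 3' minus 5' value of 0.62 in the irradiated and 0.72 in the control culture. Both lay within the 0.61 to 0.76 of the other arrays. The part of the spike-ins and of the Actb values in the result was not tested.

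Ppargc1a encodes PGC-1α, the coactivator that raises Ucp1 and mitochondrial genes. Its probe set 1434100_x_at stood at 2.71, 2.86 and 2.53 in irradiated cultures, against 3.05, 2.93 and 3.06 in controls, without overlap. The difference of -0.31 ± 0.11 (95% interval -0.57 to -0.06; limma unadjusted p = 0.025, adjusted p = 0.929) is the lowest of the 17, at levels below the lower quartile, and it was -0.20 without replicate 3. The pair differences were -0.34, -0.07 and -0.53, and the last pair holds the control array with the high spike-ins, whose part was not tested. The suffix _x marks a set whose probes may also bind other transcripts. Ppargc1a probe set 1460336_at, the highest of the gene, stood at 4.09, 4.81 and 4.03 in irradiated cultures, against 4.48, 4.48 and 4.33 in controls. The irradiated cultures lay on both sides of the controls, and the difference was -0.12 ± 0.15. For 1437751_at the pair differences were -0.03, 0.34 and -0.62, and for 1456395_at they were -0.07, 0.22 and -0.38. In these 3 probe sets the irradiated culture of experiment 2 was above its control and those of experiments 1 and 3 below. Over the 6 arrays they correlated with Pearson's r of 0.86 to 0.94, as a description of probe sets that read the same gene on the same arrays. The remaining set, 1434099_at, was at -0.05 ± 0.09.

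Cidea, which encodes a lipid droplet protein of thermogenic fat cells, had the lowest unadjusted p of the 8 genes. It stood at 3.25, 3.21 and 2.93 in irradiated cultures, against 3.40, 3.44 and 3.35 in controls. The arms did not overlap, and the pair differences were -0.15, -0.23 and -0.42. The difference of -0.27 ± 0.09 (SE, n = 3 pairs; 95% interval -0.48 to -0.06) had a limma unadjusted p of 0.021 and an adjusted p of 0.929. All 3 irradiated levels and the control levels of experiments 1 and 3 lay below the lower quartile of probe sets (3.41). The control of experiment 2, at 3.44, lay just above it. At such levels of both arms the depth of signal over background is unknown. Without replicate 3 the difference was -0.19, and the range over leaving out each experiment was -0.33 to -0.19. The pair of -0.42, from experiment 3, holds the control array with the high spike-ins, whose part was not tested.

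Without overlap and lower in irradiated cultures were 3 of the 17 probe sets, Cidea, 1 of Ppargc1a and 1 of Dio2, where 3.1% of all probe sets were. Irradiated cultures were lower in every pair for 5 of the 17 and higher in every pair for 0, where 11.2% and 12.6% of all probe sets were. In bulk RNA, fewer cells of a type and less RNA per cell cannot be told apart. Over all probe sets 47.6% were lower and 51.1% higher in mean in irradiated cultures. The 10 measured fat cell markers were all lower in mean in irradiated cultures, with a median of -0.18, none of them past the test. Of 12 macrophage and leukocyte markers 11 were higher in mean in irradiated cultures and 0 lower, and of 8 endothelial markers 7 were higher, both with a median of 0.08 and no member past the test. The part of these markers in the values of the 8 genes was not tested.

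Cox7a1 and Cox8b encode the forms of cytochrome c oxidase subunits VIIa and VIII that heart, skeletal muscle and brown fat use. Cox7a1 stood at 5.85, 5.80 and 6.12 in irradiated cultures, against 6.13, 6.0 and 6.20 in controls. It was lower in the irradiated culture of all 3 pairs, by -0.28, -0.20 and -0.08, though the arms overlapped. The difference was -0.19 ± 0.08 (95% interval -0.38 to 0.01; limma adjusted p = 0.929). Cox8b stood at 3.84, 4.14 and 4.02 in irradiated cultures, against 3.98, 3.98 and 3.73 in controls, and was higher in 2 of 3 pairs. Its difference was 0.01 without replicate 3 and 0.10 ± 0.10 over all 3 pairs (limma adjusted p = 0.948). The 18 muscle markers, measured beside Cox7a1, had a median difference of 0.01, and none passed. Of them 11 were positive, where 51.1% of all probe sets were.

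Elovl3, the elongase of very long fatty acids that is induced in cold-exposed brown fat, varied most between pairs among the genes with a single probe set. It stood at 3.91, 4.29 and 4.48 in irradiated cultures, against 4.29, 3.72 and 4.23 in controls. The pair differences of -0.38, 0.57 and 0.25 pointed both ways, and the mean was 0.15 ± 0.18 (95% interval -0.28 to 0.57; limma adjusted p = 0.954). Prdm16, the fate regulator, had mean differences between -0.06 and 0.07 in its 4 probe sets. The highest of them, 1429309_at, stood at 4.92, 5.19 and 5.18 in irradiated cultures, against 5.05, 5.06 and 5.21 in controls, which gave -0.01 ± 0.09 (95% interval -0.22 to 0.20). Probe set 1440870_at had pair differences of -0.28, -0.32 and 0.56, which pointed both ways. Its mean was -0.01 ± 0.18 (95% interval -0.45 to 0.42). The last pair holds the control array with the high spike-ins, whose part was not tested.

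Counted by pair, the probe sets of the 8 genes did not point the same way in all experiments. In experiment 1, 15 of 17 were lower in the irradiated culture, with a median difference of -0.15, where 47.1% of all probe sets were lower. In experiment 2, 7 of 17 were lower and 10 higher, with a median of 0.13, where 47.2% of all were lower. In experiment 3, 13 of 17 were lower, with a median of -0.08, where 48.4% of all were lower. Over the 3 pairs 13 of 17 had a negative mean, where 47.6% of all probe sets had one. The median was -0.08 beside 0.0033 for all probe sets. The probe sets of a gene share their transcript and all 17 share the arrays, so these counts are not counts of independent events.

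**Figure D2:**
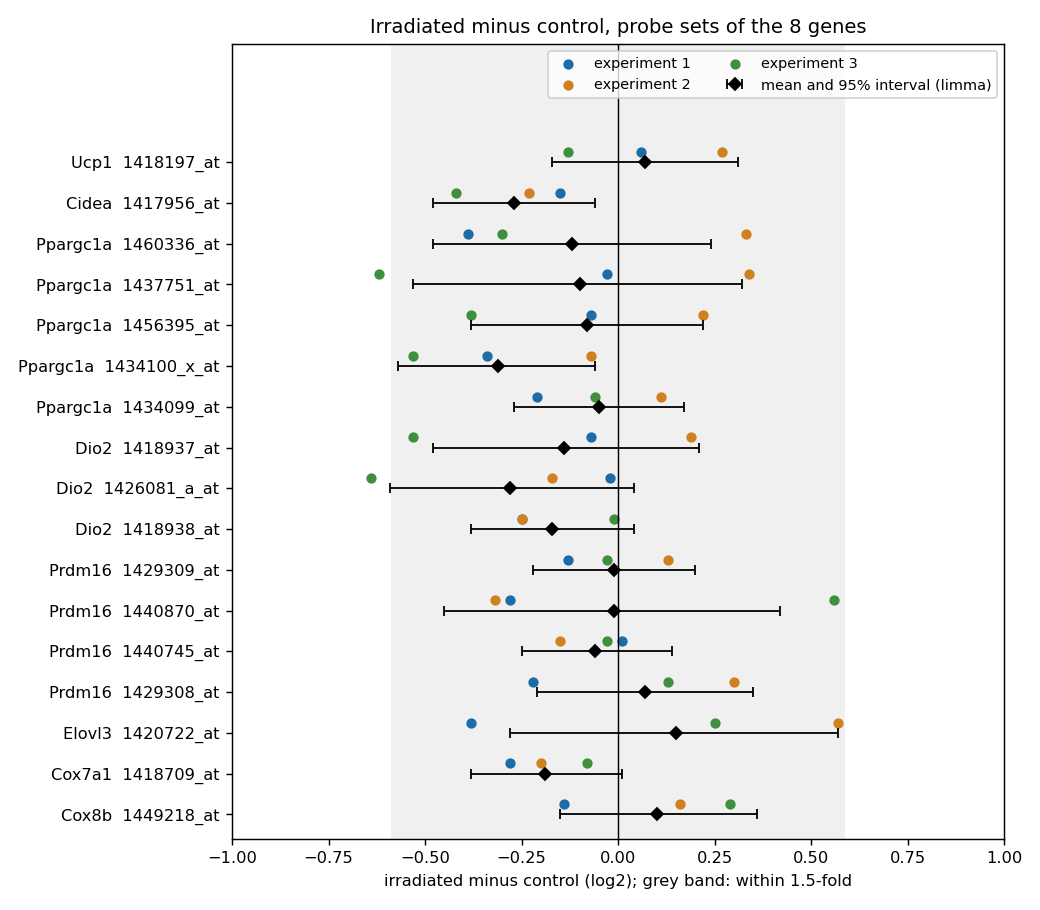
Irradiated minus control on the log2 scale (horizontal axis) for each of the 17 probe sets, with the 3 pair differences as coloured points and limma's mean with its 95% interval as black diamonds and bars. The intervals of Cidea and of Ppargc1a 1434100_x_at are the ones that do not reach 0, and all but that of Dio2 1426081_a_at lie inside the grey band of 1.5-fold.

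The second question was how far these genes differed between the 3 experiments, each read in 2 cultures, with irradiation as a term of the fit. The spread in this test is that of cultures within an experiment, so it says which levels belonged to an experiment and nothing of what set the experiments apart. Dio2 was higher in experiment 2 than in experiment 1 by 1 probe set, and Prdm16 was lower in experiment 3 than in experiment 1 by 1 probe set. The other 15 probe sets did not pass in any of the 3 contrasts. The median range over the 6 arrays was 0.53 for the 17 probe sets and 0.36 for all.

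Dio2 probe set 1418938_at averaged 6.45 in experiment 2 and 5.58 in experiment 1. The step was the same in both arms, 0.86 in irradiated and 0.86 in control cultures, and the difference was 0.86 ± 0.11 (SE, limma adjusted p = 0.0404). For experiment 3 minus experiment 1 it was 0.56 ± 0.11 (limma adjusted p = 0.0542), which just missed the threshold, and it passed with quantile normalization (adjusted p = 0.0464) and with median centring (adjusted p = 0.0461). The experiment term took 92.4% of this probe set's sum of squares and irradiation 5.26%. The other Dio2 sets did not pass for experiment 2 minus experiment 1, with 0.45 ± 0.17 for 1418937_at (limma adjusted p = 0.473) and 0.07 ± 0.16 for 1426081_a_at (limma adjusted p = 0.923). Their profiles over the 6 arrays correlated with that of 1418938_at with r = 0.66 and r = 0.08, so the probe sets of Dio2 do not agree on this step. Whether they read different transcript ends is not given in the sources used here. As a measure of RNA quality, the Gapdh controls had a 3' minus 5' value of 0.23 in the irradiated and 0.19 in the control culture of experiment 1 and of -0.05 to -0.01 in the others, and its part in this result was not tested.

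Prdm16 probe set 1440870_at stood at 4.74, 4.10 and 3.95 in irradiated cultures of experiments 1, 2 and 3, and at 5.02, 4.42 and 3.39 in controls. Experiment 3 was lower than experiment 1 by -1.21 ± 0.22 (SE, limma adjusted p = 0.0482), with -0.79 in irradiated and -1.63 in control cultures. Both arms moved the same way, and the control array of experiment 3, with the high spike-ins, gave the lowest value. Probe set 1440745_at of the same gene was at -0.41 ± 0.10 in that contrast (limma adjusted p = 0.091). The Prdm16 set with the highest level, 1429309_at, had the opposite sign, 0.21 ± 0.10 (limma adjusted p = 0.344), and correlated with the other 2 with r = -0.81 and r = -0.83 over the 6 arrays. A level of Prdm16 in these cultures therefore depends on the probe set read.

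Ppargc1a was highest in experiment 2 by its 3 brighter probe sets, without passing. Experiment 3 minus experiment 2 was -0.47 ± 0.18 for 1460336_at, -0.41 ± 0.22 for 1437751_at and -0.53 ± 0.15 for 1456395_at, with limma adjusted p between 0.392 and 0.586. In the order of experiment means, 1460336_at stood at 4.64 in experiment 2, 4.29 in experiment 1 and 4.18 in experiment 3, and no neighbours in that order differed by the test. Ucp1 averaged 4.21, 4.04 and 4.13 in experiments 1, 2 and 3, and no contrast passed (limma adjusted p from 0.707 to 0.841). Cidea averaged 3.33, 3.33 and 3.14, Cox7a1 5.99, 5.90 and 6.16, Elovl3 4.10, 4.0 and 4.36, and Cox8b 3.91, 4.06 and 3.88. The largest of their contrasts was 0.35 ± 0.21 for Elovl3, experiment 3 minus experiment 2 (limma adjusted p = 0.634).

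In all, 1 of the 17 passed higher in experiment 2 than in experiment 1 and 0 lower, where 0.473% and 0.0466% of all probe sets did. In experiment 3 against experiment 1, 0 passed higher and 1 lower, where 1.87% and 1.18% did. In experiment 3 against experiment 2 it was 0 either way, where 0.0355% were higher and 0% lower. In that contrast 6 of the 17 had an unadjusted p under 0.05, where 9.89% of all probe sets did. Such a p was found for 4 of the 17 in experiment 2 against experiment 1 and for 3 in experiment 3 against experiment 1, where 9.89% and 19.1% of all had one. Several of these probe sets read the same gene. By the brightest probe set of each gene, such a p was found for 2 of 8 in experiment 3 against experiment 2. It was found for 1 of 8 in experiment 2 and for 0 in experiment 3, each against experiment 1. Both calls among the 17 were lost in fits with only the 2 experiments compared, that is without replicate 3 for Dio2 (limma adjusted p = 0.199) and without replicate 2 for Prdm16 (limma adjusted p = 0.262). Such fits have 4 arrays and called no probe set at all.

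**Figure D3:**
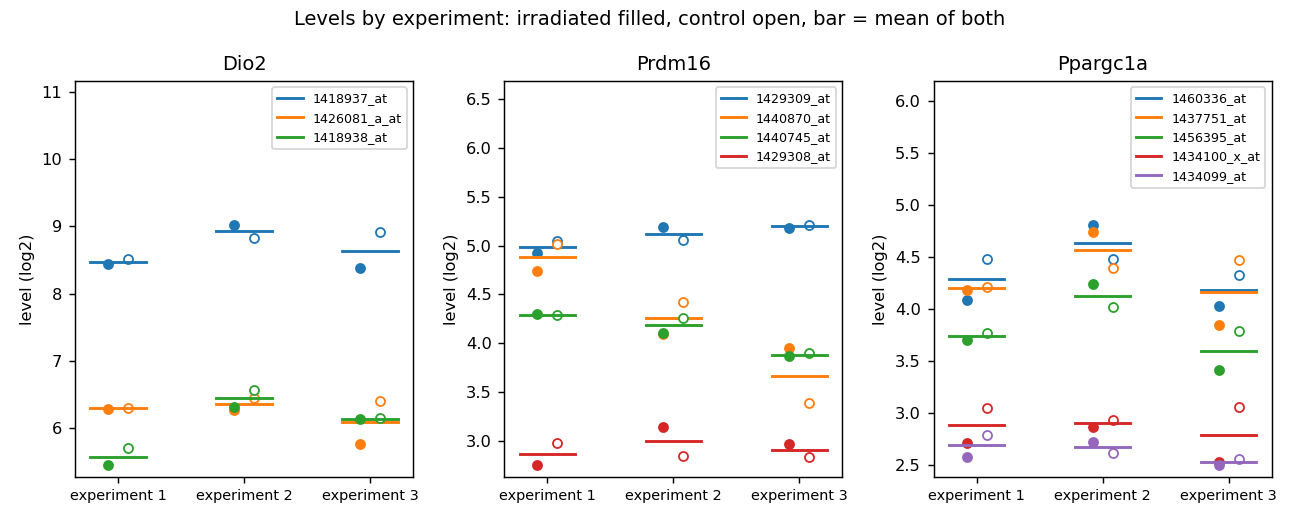
Log2 level (vertical axis) of the probe sets of Dio2, Prdm16 and Ppargc1a in experiments 1, 2 and 3, with irradiated cultures filled, controls open and a bar at the mean of both. Dio2 1418938_at steps up by 0.86 between experiments 1 and 2 in both arms, and Prdm16 1440870_at and 1429309_at run in opposite directions.

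By likeness over the 6 arrays, Dio2 1418937_at was the only probe set of the leading ones with a level at or above the median and a range of at least 0.5. The genes whose arrays followed it most closely were Auts2 (Pearson's r = 0.995), Atxn7 (r = 0.981) and Psmd11 (r = 0.968), among 4790 probe sets of other genes that met the same limits. Auts2 stood at 5.35, 5.94 and 5.26 in irradiated and 5.40, 5.77 and 5.91 in control cultures, so it shares the low irradiated culture and high control of experiment 3. With 6 arrays such values arise readily, and 33 of the 4790 had an r over 0.9.

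The partners of the 8 genes were read from lists, with 1 probe set a gene, and for irradiation no list member passed the test. Among 19 measured coactivators, partner factors and mitochondrial transcription factors of the PGC-1 pathway, 13 were lower and 6 higher in irradiated cultures, with a median of -0.07 beside 0.0033 for all probe sets. Of all probe sets 47.6% were lower and 51.1% higher. The genes of a list share the 6 arrays, so these counts are not counts of independent events. Ppargc1b, the PGC-1β coactivator gene, stood at 8.23, 7.67 and 7.80 in irradiated cultures, against 8.61, 8.04 and 7.84 in controls (-0.26 ± 0.10). The related gene Pprc1 had the other sign, with 7.70, 7.61 and 7.64 in irradiated cultures, against 7.56, 7.46 and 7.24 in controls (0.23 ± 0.09). No irradiated value of Pprc1 lay below a control value.

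Of 22 other brown and beige markers measured, 14 were lower and 7 higher, where 47.6% and 51.1% of all probe sets were. Their median was -0.06. The amino acid transporter gene Slc36a2, a marker of brown fat cells, had the largest difference of the list. It stood at 7.04, 6.83 and 7.15 in irradiated cultures, against 8.0, 7.44 and 7.57 in controls, and the arms did not overlap (-0.66 ± 0.12, limma unadjusted p = 0.0012). S100b, which brown fat cells make as a factor for nerve growth, was at -0.28 ± 0.10, and the highest difference of the list was 0.13. Lineage regulators were balanced, with 11 of 23 higher and 11 lower and a median of 0.00. Fgf21, a hormone that brown fat can release, was at -0.34 ± 0.14, with a mean level below the median. Its pair differences were -0.19, -0.08 and -0.75, and the last pair holds the control array with the high spike-ins, whose part was not tested. Bmp8b, a growth factor gene of the same list, had the other sign, with 4.60, 4.66 and 4.75 in irradiated cultures, against 4.57, 4.36 and 4.53 in controls (0.18 ± 0.09), without overlap. The list of creatine and calcium cycling genes, which make heat without Ucp1, ranged from -0.07 to 0.10 over 11 genes. That of adrenergic and cAMP signalling, of which 13 of 16 genes were measured, ranged from -0.17 to 0.15.

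White fat genes and repressors of the brown program had a median that rounds to 0, with 9 of 17 lower and 8 higher, and the fat-cell hormone gene resistin (Retn) was at -0.32 ± 0.08. Agt, the angiotensinogen gene of the same list, was at 0.16 ± 0.08 and higher in 3 of 3 pairs. Among carriers of the inner mitochondrial membrane related to Ucp1, 7 of 8 were lower, where 47.6% of all probe sets were. The lowest was Slc25a20, the carnitine and acylcarnitine carrier, at -0.21 ± 0.08. The exception was Slc25a14, a relative of Ucp1, at 0.14 ± 0.08, higher in 3 of 3 pairs and without overlap. Ucp3 was at -0.06 ± 0.09, and its other probe set had the opposite sign. Of the ubiquitous counterparts of the 2 oxidase isoforms, Cox7a2 stood at 12.97, 12.90 and 12.88 in irradiated and 13.02, 12.94 and 12.94 in control cultures (-0.05 ± 0.07), and Cox8a differed by -0.08 ± 0.08. The list of 20 oxidase subunits and assembly factors had a median of -0.04, with 15 lower, where 47.6% of all probe sets were. Among relatives by family, Cidec, the droplet protein gene of white fat cells, stood at 11.50, 11.95 and 11.97 in irradiated cultures, against 12.13, 12.33 and 12.39 in controls. Its difference was -0.48 ± 0.09, and that of Cideb, the liver form, was 0.03 ± 0.10. The deiodinase Dio1 was at -0.14 ± 0.10 at levels below the lower quartile. Its list of thyroid hormone genes ran from -0.69 ± 0.31 for Thrsp, a gene induced by thyroid hormone, to 0.18 ± 0.07 for the receptor gene Thrb. The elongase Elovl6, at 0.07 ± 0.07, was the highest of 6 ELOVL elongases, and Elovl4 at -0.35 ± 0.16 the lowest. Elovl2, at -0.25 ± 0.10, was the member of that list with an unadjusted p under 0.05 (limma unadjusted p = 0.039).

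**Figure D4:**
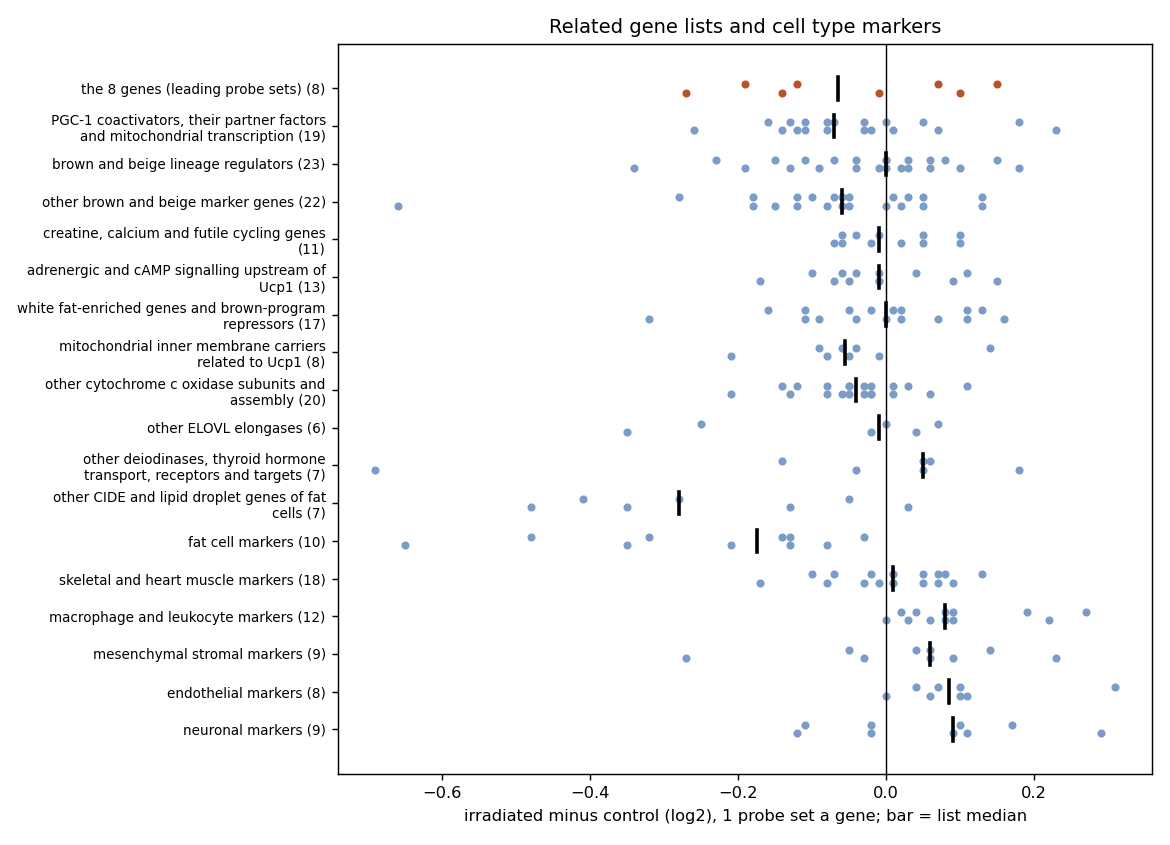
Irradiated minus control on the log2 scale (horizontal axis) for the genes of each list, 1 point a gene, with the list median as a black bar and the number of measured genes in brackets. The 8 genes, in the top row, run from -0.27 to 0.15, and no point in the plot passed the test.

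Some partner genes passed between experiments. With 1 probe set a gene, 0.616% of all 18193 genes passed higher and 0.033% lower in experiment 2 against experiment 1, and 2.07% higher and 1.07% lower in experiment 3 against experiment 1. In experiment 3 against experiment 2, where 0.044% passed higher, no list member did. The counts below, of 1 to 4 genes a list, are a description of these lists and single none of them out. Of the 19 genes of the PGC-1 list 1 passed, Sirt1, the deacetylase that acts on PGC-1α. It was higher in experiment 2 than in experiment 1 by 0.81 ± 0.10 (limma adjusted p = 0.0343) and in experiment 3 than in experiment 1 by 1.72 ± 0.10 (limma adjusted p = 0.00106). Of 13 genes of adrenergic and cAMP signalling 2 passed. Rgs2, a cAMP-induced regulator of G protein signalling, was higher by 1.53 ± 0.13 and 1.67 ± 0.13 in the same contrasts (limma adjusted p = 0.0104 and 0.00306), and Prkar2b, a regulatory subunit of protein kinase A, was lower in experiment 3 than in experiment 1 (-0.66 ± 0.09, limma adjusted p = 0.022). Slc25a25, an ATP carrier related to Ucp1 and the 1 of 8 carriers that passed, was higher by 1.24 ± 0.13 and 1.16 ± 0.13 (limma adjusted p = 0.0253 and 0.0116). For experiment 3 minus experiment 1, Cebpb, a partner of Prdm16 in the brown fate, was at 0.97 ± 0.11 (limma adjusted p = 0.0109). In that contrast Ebf2, which marks brown precursors, was lower at -0.69 ± 0.10 (limma adjusted p = 0.0232), and Zfp423, which holds fat cells in the white state, at -0.93 ± 0.11 (limma adjusted p = 0.0116). Of 23 lineage regulators 2 passed higher in it and 1 lower, and of 17 white fat genes and repressors 2 higher and 2 lower. Of these 17, 1 also passed higher in experiment 2 than in experiment 1 (1.28 ± 0.17, limma adjusted p = 0.0462). Of 20 oxidase genes 1 passed in experiment 3 against experiment 1, Cox7c (-1.02 ± 0.13, limma adjusted p = 0.0162). Of 22 other brown and beige markers 1 passed, Pdk4 (0.51 ± 0.09, limma adjusted p = 0.0476), and of 7 droplet genes 1, lower. Of 9 neuronal markers 1 passed, Tubb3 (2.00 ± 0.19, limma adjusted p = 0.00683), and of 8 endothelial markers 1, higher. Both contrasts share the arrays of experiment 1. The fat cell markers had no member past the test in any contrast.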

How the data were processed

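RNA of 6 cultures was labelled with biotin from 200 ng of total RNA and read on Affymetrix arrays, per the labels' protocols. The deposited values are log2 levels, 1 per probe set and array, for which the submitters' processing notes name RMA, affy and limma without versions or roles. The log base was taken from RMA's usual scale. RMA equalizes arrays, which hides any change common to all RNAs. Of 45101 probe sets, 64 array controls were left out. Genes were named from the platform annotation. limma 3.58.1 in R 4.3.3 (lmFit, eBayes) was fitted to all 45037 probe sets with irradiation and experiment as terms, two-sided, with Benjamini-Hochberg adjustment, a threshold of 0.05 and no filter on level, and tested on simulated data. The 3 contrasts between experiments came from the same fit. Experiments pair the arrays by the series design. Deviations of paired arrays from their group means correlated with r = 0.629, 0.142 and 0.505, and irradiated culture 2 with control 3 at 0.153. The precision is limited by 3 arrays per group. In lists a gene was read by its brightest single-gene probe set. Besides all probe sets of the 8 genes, list genes could be named if they were paralogs or among the 2 per list with the smallest unadjusted p for irradiation or for experiments, and not all of these are. The 3 closest genes by Pearson's r are named too. The members and lists were chosen with earlier results of these data known.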

Additional observations from a re-analysis of the deposited data

How the results depend on the processing

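All alternatives were planned. No probe set of any gene passed between irradiated and control cultures under the main fit or any alternative. The fit with no replicate block changed no call (0 of 45037 probe sets). Its differences equal those of the main fit by design, because each experiment holds 1 culture of each arm. That fit could therefore not change a direction among the 17. By leaving out each experiment, differences of irradiated minus control spanned -0.04 to 0.17 for Ucp1, -0.34 to 0.01, -0.33 to 0.15, -0.23 to 0.07 and -0.14 to 0.03 for Ppargc1a 1460336_at, 1437751_at, 1456395_at and 1434099_at, -0.30 to 0.06 for Dio2 1418937_at, -0.08 to 0.05, -0.30 to 0.14 and -0.04 to 0.21 for Prdm16 1429309_at, 1440870_at and 1429308_at, and -0.07 to 0.41 for Elovl3. The others kept their sign but moved, from -0.33 to -0.19 for Cidea, -0.43 to -0.20 for Ppargc1a 1434100_x_at, -0.41 to -0.10 and -0.25 to -0.13 for Dio2 1426081_a_at and 1418938_at, -0.09 to -0.01 for Prdm16 1440745_at, -0.24 to -0.14 for Cox7a1 and 0.01 to 0.23 for Cox8b. With the mean of its probe sets Prdm16 turned to -0.12, -0.34 and -0.23 for experiments 2 minus 1, 3 minus 1 and 3 minus 2, against 0.14, 0.21 and 0.07 for 1429309_at.

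Counts between experiments depended on the fit. For experiments 2 minus 1, 3 minus 1 and 3 minus 2 the main fit called 234, 1374 and 16 probe sets, against 374, 2513 and 64 with the filter at the median level, 670, 3534 and 275 with an intensity trend, 151, 750 and 33 genes with the mean of probe sets, and 0 in each fit of 2 experiments, which has 4 arrays. Among the 8 genes the call for experiment 2 minus 1 became 0 with the mean of probe sets and without replicate 3. For experiment 3 minus 1 it became 2 with quantile normalization, median centring or the trend, by adding Dio2 1418938_at, and 0 with the mean of probe sets and without replicate 2. That Dio2 probe set stood at 0.58 with quantile normalization, 0.57 with centring, and 0.56 with the filter (limma adjusted p = 0.0240) or the trend (0.0232). The filter drops Prdm16 1440870_at. The causes were not tested otherwise. Most of the 17 probe sets are dim, which limits what the arrays can show of Ucp1, Cidea, Ppargc1a, Elovl3 and Cox8b.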
